A study of Rattus norvegicus with 2 samples.

Results

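The genes of oxidative phosphorylation described here, nuclear and mitochondrial, were picked by name among the 32883 genes of the count tables. They start with Mt-nd, Mt-co, Mt-cyb, Mt-atp, Nduf, Uqcr or Atp5, or are Sdha to Sdhd or the Cox4 to Cox8 subunits other than Cox6a2. Of 110 genes with such names, 103 had at least 50 UMIs (unique molecular identifiers, tags that mark each captured RNA molecule once) over both libraries. The remaining 7 were Cox7b2 with 9 UMIs, Cox8b with 21, Cox7a1 and Atp5pb with 1 each, and Ndufa1, Cox8c and Cox6c-ps1 with 0. Ndufa1 and Atp5pb encode known parts of complex I and of the ATP synthase, and whether the annotation used for counting misses their transcripts was not tested. The 103 members were 13 mitochondrial genes and 90 nuclear genes. The nuclear members held 37 subunits and 8 assembly factors of complex I, 4 subunits of complex II, 9 of complex III, 16 of complex IV, and 15 subunits and 1 inhibitor of the ATP synthase. Cox6b1, Ndufa10l1, Ndufv3 and Uqcrb each stood in the tables under 2 identifiers, and Cox7a2l2 has close relatives in the genome, so reads may have been split between such copies.

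Oxidative phosphorylation is carried out by 4 electron-transfer complexes of the inner mitochondrial membrane (I to IV) and by the ATP synthase (complex V). Their subunits come from both genomes, so nuclear transcripts made in the nucleus and transcripts made inside the mitochondrion have to supply the same complexes. Complex II is built from nuclear genes alone. Some nuclear subunits have a broadly expressed form and a second form known from particular tissues, such as Cox4i1 and Cox4i2 in complex IV.

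Control and SC300 female Sprague Dawley rats were compared at postnatal day (PND) 29. From PND 0.5 on, SC300 rats had carried estradiol benzoate, a long-acting estrogen, at 300 µg in an implanted silicone capsule. The labels call the Control rats intact, whereas the study's methods give them an oil-filled capsule. Hypothalamic tissue that included the anteroventral periventricular and arcuate nuclei (AVPV and ARC) was pooled from 3 rats per group and dissociated, and 1 droplet library (3′ counting, 10x Genomics) was made per pool. The 4296 Control and 4379 SC300 barcodes with at least 200 detected genes held 51382276 and 56390355 UMIs, and 9 barcode sequences occurred in both libraries. With 1 library per group there is no measure of the spread between rats and no test. Values in parentheses are exact 95% intervals that cover counting error only. Levels are in CPM, the UMIs of a gene per 1000000 UMIs of its cell type, and were not divided by gene length, since 3′ counting gives 1 tag per molecule. A ratio below is the log2 of the SC300 level over the Control level.

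Barcodes were sorted into cell types by marker genes. A first gate, which counted how many markers of a list were detected, gave 8 types with at least 50 barcodes in each library, but left tanycytes and mural cells (pericytes and smooth muscle) below that number. A second gate on marker levels, chosen after seeing the data, gave 10 types and is used for all levels below unless the first gate is named. It held 427 Control and 415 SC300 neurons, 1241 and 1371 astrocytes, 115 and 66 tanycytes, 176 and 130 ependymal cells, 347 and 337 oligodendrocyte precursors, 117 and 106 newly formed oligodendrocytes, 372 and 463 mature oligodendrocytes, 480 and 457 microglia, 323 and 289 endothelial cells, and 73 and 84 mural cells. The gate sorted barcodes by these same markers, so their levels are no independent check of the types. In 9 of these 10 types each measured marker was highest in its own gate in both libraries. For oligodendrocyte precursors 3 of 4 were, and Pdgfra reached 1552 and 1408 CPM there against 18.5 and 16.3 CPM in the next type. The mural gate also held endothelial RNA, with the 5 endothelial markers at 4973 and 5183 CPM there and at 10267 and 10044 CPM in endothelial cells. Border-associated macrophages (18 and 50 barcodes) and stromal cells (18 and 40) were too few to compare.

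The nuclear members were most abundant in neurons and least abundant in microglia. Summed over the 90 genes, neurons had 51511 CPM in Control and 48909 CPM in SC300. Newly formed oligodendrocytes followed with 31768 and 32005 CPM, oligodendrocyte precursors with 30950 and 30767 CPM, and mural cells with 29259 and 30337 CPM. Microglia had 14157 and 14550 CPM. The other 5 types lay between 23701 and 26510 CPM and were close to each other, while neurons stood apart in both libraries. Of the 90 nuclear members, 60 had their highest level in neurons in both libraries and 69 their lowest in microglia. The same shares were not counted over all genes, so these counts do not show a trait particular to the members. The median ratio between a member's highest and lowest cell type was 4.07 in Control and 3.79 in SC300.

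The mitochondrial members followed another order. Their sum was highest in ependymal cells, at 175269 and 177794 CPM, followed by astrocytes at 155479 and 165313 CPM and tanycytes at 153302 and 155263 CPM. Neurons had 138748 and 151166 CPM. Microglia were lowest again, at 71510 and 83756 CPM. Per 100 mitochondrial UMIs, neurons therefore held 37.1 nuclear UMIs in Control and 32.4 in SC300, against 14.6 and 14.6 in ependymal cells and 15.5 and 14.3 in astrocytes. Barcodes with over 20% mitochondrial UMIs, a common sign of damaged cells, made up 27.6% and 29.9% of neurons, 22.5% and 21.1% of astrocytes, 21.0% and 28.5% of ependymal cells, but 1.67% and 1.09% of microglia. Their part in the mitochondrial levels was not tested.

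**Figure D1:**
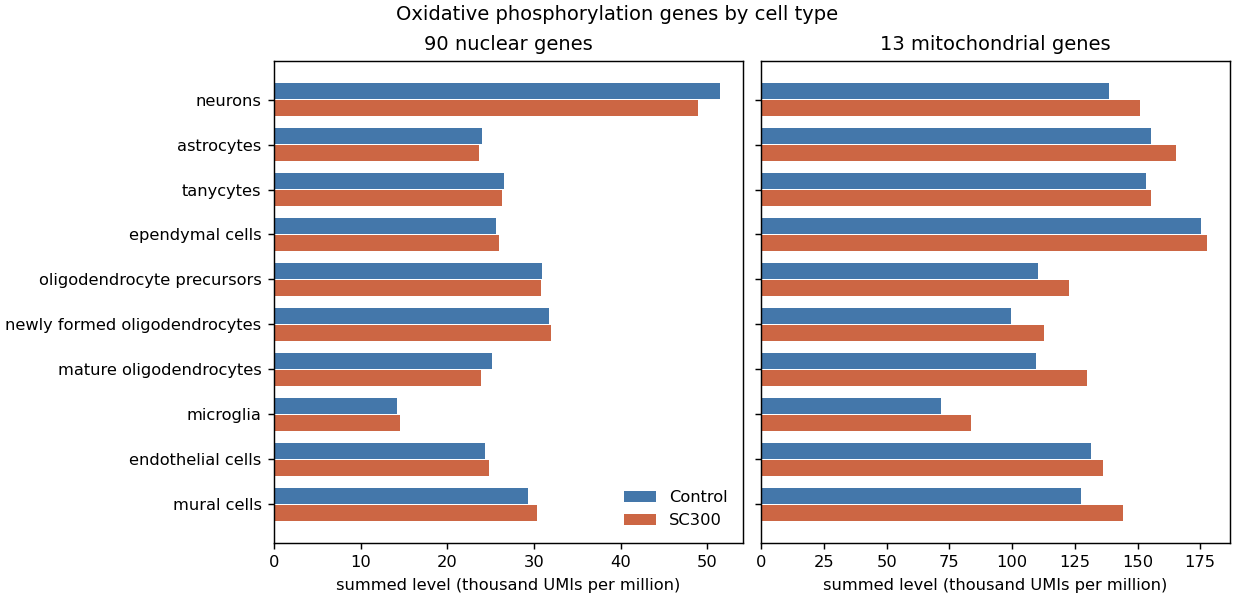
Summed levels (in units of 1000 CPM, horizontal axes starting at 0) of the 90 nuclear and the 13 mitochondrial members in 10 marker-gated cell types, 1 bar per library. Neurons lead the nuclear panel with 51511 CPM in Control, and ependymal cells lead the mitochondrial panel with 175269 CPM.

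The summed nuclear subunits of complexes I, III, IV and V were each highest in neurons, and those of complex II were not. The 37 nuclear subunits of complex I summed to 16972 CPM in Control neurons and 3928 CPM in Control microglia. For complex III the sums were 4891 and 1580 CPM, for complex IV 15116 and 3964 CPM, and for complex V 11938 and 3819 CPM. Complex II, which links the TCA cycle to the respiratory chain, had 690 CPM in neurons, 386 CPM in microglia and 796 CPM in newly formed oligodendrocytes. In SC300 the complex II sums were 666, 407 and 798 CPM in the same order. Its members differed among themselves. Sdha, the flavoprotein that oxidises succinate, ranged from 45.1 CPM in microglia to 139 CPM in mural cells of Control. Sdhb, the iron-sulfur subunit, was highest in newly formed oligodendrocytes at 311 and 278 CPM. The membrane anchor Sdhc was highest in astrocytes at 253 and 243 CPM and low in microglia at 62.9 and 65.9 CPM, and the other anchor, Sdhd, was highest in newly formed oligodendrocytes at 195 and 234 CPM.

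The most abundant nuclear members over all kept barcodes belonged mainly to complex IV. Cox8a, a small subunit, had 1108 CPM in Control and 1119 CPM in SC300. Ndufa4, which was first assigned to complex I and is part of complex IV, had 1076 and 1017 CPM. Cox4i1 had 1028 and 1004 CPM, Cox6c 966 and 966 CPM, and Atp5f1e, the epsilon subunit of the ATP synthase, 788 and 747 CPM. Each was most abundant in neurons, with 2203 and 2093 CPM for Ndufa4, 1890 and 1838 CPM for Cox4i1, and 1851 and 1831 CPM for Cox8a. Outside neurons their patterns parted. Cox8a stayed high in astrocytes at 1307 and 1348 CPM and reached 593 and 592 CPM in mature oligodendrocytes and 420 and 477 CPM in microglia, whereas Ndufa4 was second highest in oligodendrocyte precursors at 1488 and 1406 CPM and lowest but for microglia in mural cells at 520 and 512 CPM. Uqcrh, the hinge protein of complex III, ranged from 250 and 247 CPM in microglia to 814 and 844 CPM in neurons.

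**Figure D2:**
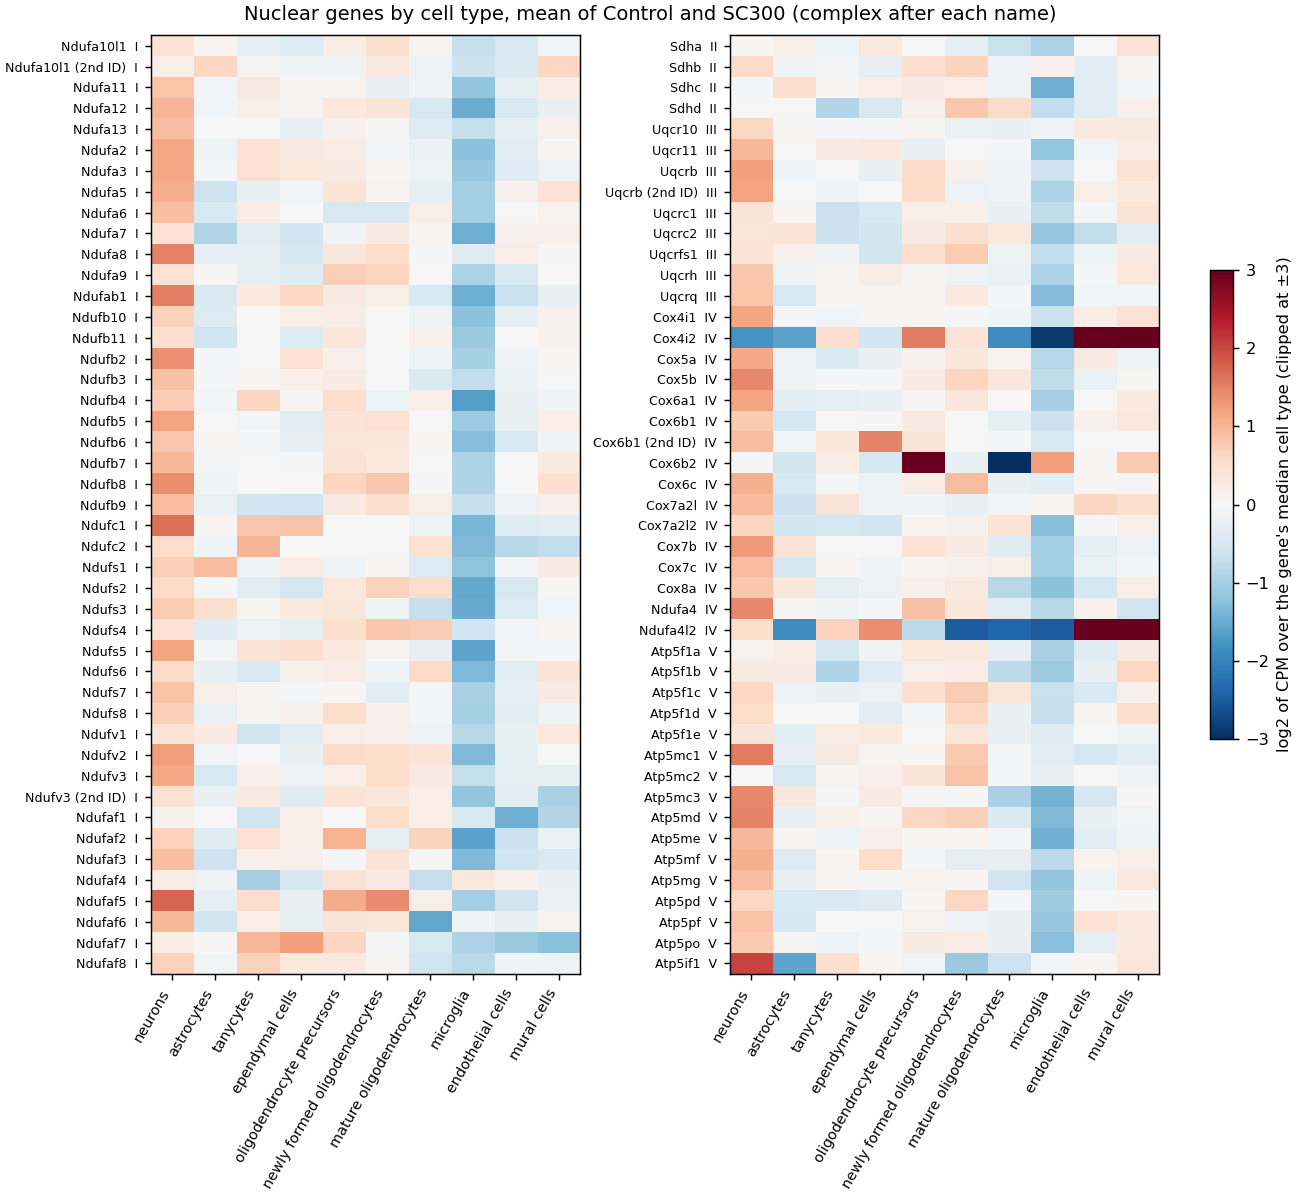
The 90 nuclear members by cell type. Colour is the log2 of the level (mean of both libraries, plus 0.5 CPM) over the gene's median cell type, red above and blue below, clipped at 3 in either direction. The neuron column is red and the microglia column blue for most genes, and Cox4i2, Ndufa4l2, Cox6b2 and Atp5if1 show patterns of their own.

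Promoter sequence was available for 74 of the 86 nuclear member symbols (RefSeq, GRCr8, 250 bases before to 50 after the start of the gene). NRF1, ETS-family factors and YY1 are known regulators of nuclear respiratory genes. The ETS motif CCGGAAG, searched on both strands, was in 20 of the 74 windows (27.0%) and in 9.22% of all 27457 windows of that length. Those 27457 windows were not limited to expressed genes or to windows of similar base composition, unlike the members, which were all expressed here. The palindromic NRF1 motif of 10 letters was in 6 (8.11%, against 0.932% of all windows) and the YY1 motif AAGATGGCG in 11 (14.9%, against 1.93%). At least 1 of the 3 was in 32 windows (43.2%, against 11.5%). The hypoxia-response core ACGTG was in 20 windows (27.0%, against 19.7%). The windows below belong to members described here and were picked after their matches were known. Cox4i1, Cox8a and Atp5mc2, found in every type, and Atp5mc3, highest in neurons, have matches, and Cox6b2 and Ndufa4l2, each highest in 1 type, have none. The matches did not divide members by breadth, since Ndufa4, Cox6b1, Cox7c and Atp5f1b, also found in every type, had none of the 4 motifs. Capitals mark ETS and ACGTG matches in Cox4i1 and Cox8a, the NRF1 match in Atp5mc2 and, in Atp5mc3, 2 overlapping ACGTG matches on opposite strands. A match is a run of letters, and its absence says only that these letters are not in the window.
Cox4i1, chr19:65630133-65630432, plus strand: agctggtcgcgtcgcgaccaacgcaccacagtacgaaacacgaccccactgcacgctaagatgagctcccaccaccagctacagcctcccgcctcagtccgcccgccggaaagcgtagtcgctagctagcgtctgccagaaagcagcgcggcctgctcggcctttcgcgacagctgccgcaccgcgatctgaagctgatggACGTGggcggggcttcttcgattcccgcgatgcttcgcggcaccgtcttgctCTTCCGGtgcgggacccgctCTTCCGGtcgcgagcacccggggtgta
Cox8a, chr1:213833574-213833873, minus strand: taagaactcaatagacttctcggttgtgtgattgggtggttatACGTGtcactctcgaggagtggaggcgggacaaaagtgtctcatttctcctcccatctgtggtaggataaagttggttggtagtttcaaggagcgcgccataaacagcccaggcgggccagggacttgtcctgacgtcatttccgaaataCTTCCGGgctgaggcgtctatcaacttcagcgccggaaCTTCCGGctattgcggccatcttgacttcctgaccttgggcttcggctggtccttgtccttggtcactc
Atp5mc2, chr7:135678169-135678468, minus strand: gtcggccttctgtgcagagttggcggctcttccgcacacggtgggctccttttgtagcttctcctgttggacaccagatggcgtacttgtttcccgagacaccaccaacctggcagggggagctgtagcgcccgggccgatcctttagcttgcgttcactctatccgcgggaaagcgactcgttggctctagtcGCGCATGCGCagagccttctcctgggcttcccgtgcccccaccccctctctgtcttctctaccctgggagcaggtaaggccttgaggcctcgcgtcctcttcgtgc
Atp5mc3, chr3:79220615-79220914, minus strand: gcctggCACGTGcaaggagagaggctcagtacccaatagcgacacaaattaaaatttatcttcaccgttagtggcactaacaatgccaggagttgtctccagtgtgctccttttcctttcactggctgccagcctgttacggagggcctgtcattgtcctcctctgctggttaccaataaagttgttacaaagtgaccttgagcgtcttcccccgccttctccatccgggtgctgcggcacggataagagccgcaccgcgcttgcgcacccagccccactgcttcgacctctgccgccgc
Cox6b2, chr1:78122621-78122920, plus strand: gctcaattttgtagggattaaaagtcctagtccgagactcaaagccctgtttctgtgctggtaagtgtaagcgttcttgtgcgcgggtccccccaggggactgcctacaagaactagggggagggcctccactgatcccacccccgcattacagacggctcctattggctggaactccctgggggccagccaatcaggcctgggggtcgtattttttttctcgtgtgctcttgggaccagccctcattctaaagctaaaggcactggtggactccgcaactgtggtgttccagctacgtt
Ndufa4l2, chr7:65241919-65242218, plus strand: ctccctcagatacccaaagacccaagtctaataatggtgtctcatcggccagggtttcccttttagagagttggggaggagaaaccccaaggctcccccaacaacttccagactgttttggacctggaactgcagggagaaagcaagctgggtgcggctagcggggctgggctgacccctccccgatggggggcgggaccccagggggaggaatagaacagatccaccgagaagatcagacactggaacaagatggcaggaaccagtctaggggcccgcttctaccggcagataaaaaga

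Few members were particular to a cell type. By the rule that a gene be at least 2-fold higher in 1 type than in the next in both libraries, 5 of the 103 members passed, against 20% of the 13979 genes with enough UMIs. By the first gate 6 passed, against 26.6%. The 5 were Cox4i2 and Ndufa4l2 in mural cells, Cox6b2 in oligodendrocyte precursors, and Atp5if1 and Atp5mc3 in neurons. The first gate, which had no mural type, placed the first pair in endothelial cells and added Ndufb2, an accessory subunit of complex I, in neurons.

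Cox4i2, the alternative form of subunit 4 known for its response to low oxygen, had 1013 CPM in Control and 948 CPM in SC300 mural cells, 8.33-fold and 6.17-fold above the next type. That type was endothelial cells, with 122 and 154 CPM. In mural cells Cox4i2 made up 47.9% and 45.03% of the UMIs of both forms together, against 0.140% and 0.264% in neurons. Cox4i1 itself stood at 1104 and 1157 CPM there, second to neurons. Ndufa4l2, the paralog of Ndufa4, was likewise highest in vessel cells, with 273 and 319 CPM in mural cells and 66.7 and 65.8 CPM in endothelial cells. It formed 34.4% and 38.4% of the UMIs of the pair in mural cells. Among microglia and newly formed oligodendrocytes no Ndufa4l2 UMI was counted in either library, and mature oligodendrocytes had 1 in all.

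Cox6b2, known from testis as the second form of Cox6b1, was highest in oligodendrocyte precursors, at 68.5 and 70.5 CPM. The next type, microglia, had 17.2 and 16.3 CPM, and mature oligodendrocytes had 0.384 and 0.285 CPM. A UMI of Cox6b2 was seen in 29.4% (24.7 to 34.5) of Control and 36.2% (31.1 to 41.6) of SC300 precursors, against 0.538% and 0.648% of mature oligodendrocytes, whose median depth was higher (19846 and 20765 UMIs, against 6214 and 6701). Mature oligodendrocytes had 3 Cox6b2 UMIs in either library, and newly formed ones 8 in either. The first identifier of Cox6b1, the common form, had 588 and 530 CPM in precursors and 405 and 373 CPM in mature oligodendrocytes.

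Atp5if1, the inhibitor that keeps the ATP synthase from running in reverse, had 1378 and 1261 CPM in neurons, 3.11-fold and 2.72-fold above the next type. Its lowest level was in astrocytes, at 108 and 109 CPM, a 12.8-fold and 11.6-fold gap. Subunit c, which forms the rotor ring, is encoded by 3 genes that give the same mature protein. Atp5mc3 was 2.05-fold and 2.22-fold above the next type in neurons, at 885 and 866 CPM, close to the 2-fold limit of the rule. It gave 35.6% and 35.8% of the subunit c UMIs in neurons but 13.3% and 14.2% in microglia. Atp5mc1 was also highest in neurons, at 1020 and 1004 CPM. Atp5mc2 was highest in newly formed oligodendrocytes, at 1009 and 1024 CPM, where it made up 53.6% and 52.0% of the 3, against 23.3% and 22.6% in neurons.

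**Figure D3:**
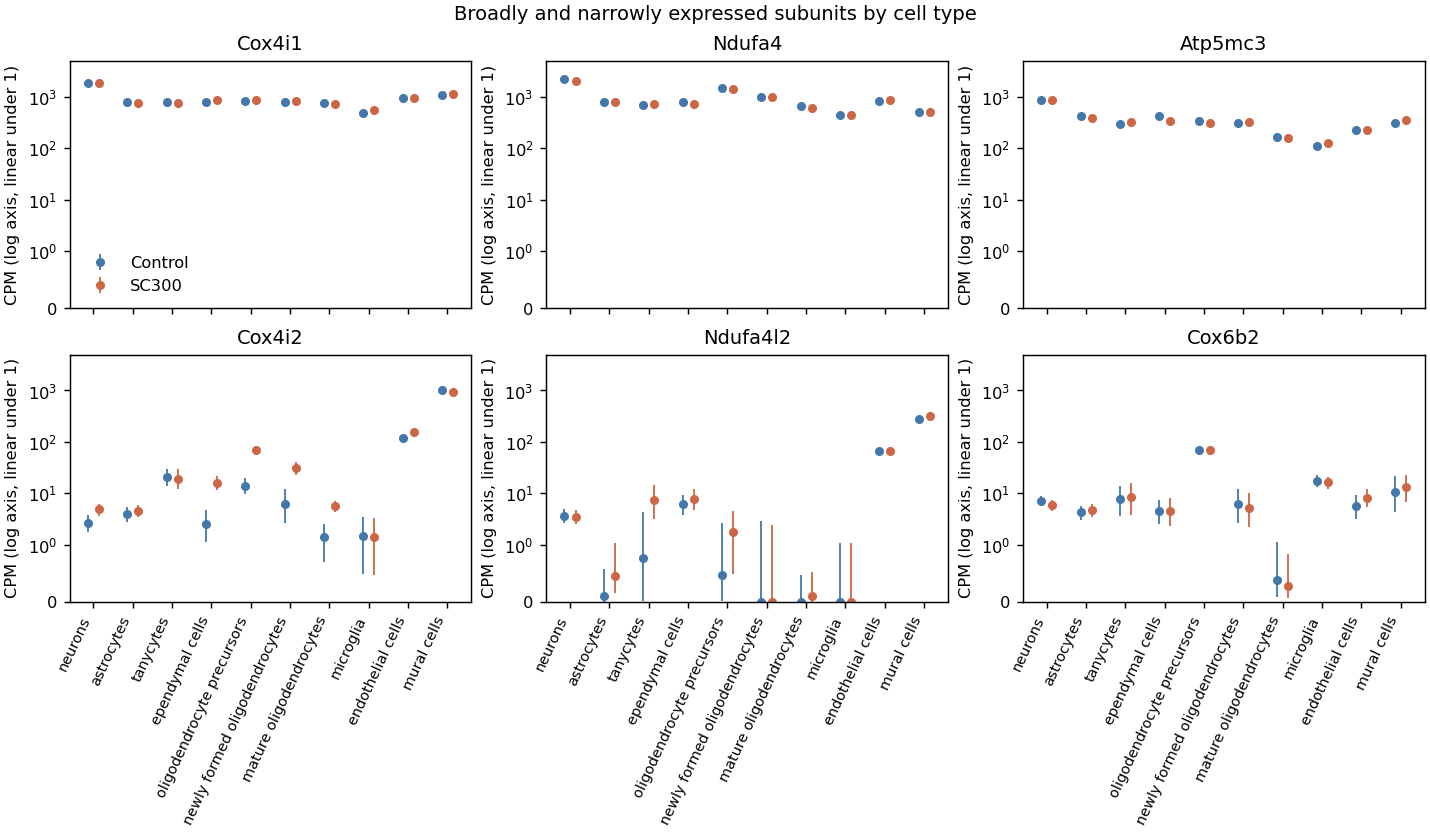
Levels (CPM, log axis that is linear under 1) of 6 subunits in 10 cell types, with exact 95% counting intervals. The 3 upper panels are found in every type, and the 3 lower ones peak in mural cells (Cox4i2 at 1013 and 948 CPM, Ndufa4l2 at 273 and 319 CPM) or in oligodendrocyte precursors (Cox6b2 at 68.5 and 70.5 CPM).

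The other families with tissue forms had no member particular to a type. Cox6a1 was highest in neurons at 1052 and 1056 CPM and lowest in microglia at 227 and 229 CPM. Cox7a2l, which helps to join complexes III and IV, was highest in neurons at 482 and 472 CPM and followed by endothelial cells at 389 and 385 CPM. Cox7a2l2 was second highest in mature oligodendrocytes, at 821 and 760 CPM, after 951 and 909 CPM in neurons. The second identifier of Cox6b1 stayed at or under 28.5 CPM in all 10 types.

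The mix of the 13 mitochondrial transcripts also differed between cell types. They are cut from long precursor RNAs, so their relative levels depend on processing and stability as well as on transcription. In mature oligodendrocytes Mt-co3 took 21.3% and 21.8% of the mitochondrial UMIs, the highest share of any type, against 15.4% to 18.5% in the others. Mt-nd1 took 5.09% and 5.96% and Mt-nd2 5.25% and 5.95% there, the lowest of any type in both libraries. Ependymal cells had the lowest share of Mt-co1, at 9.44% and 9.30%, and the highest of Mt-nd5, at 0.778% and 0.712%. Microglia had the lowest share of Mt-cyb, at 9.87% and 9.90%, and of Mt-nd4l, at 0.269% and 0.219%. The highest share over the lowest was 1.24 and 1.16 for Mt-atp6 and 1.23 and 1.30 for Mt-co2, the narrowest ranges of the 13 in Control.

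**Figure D4:**
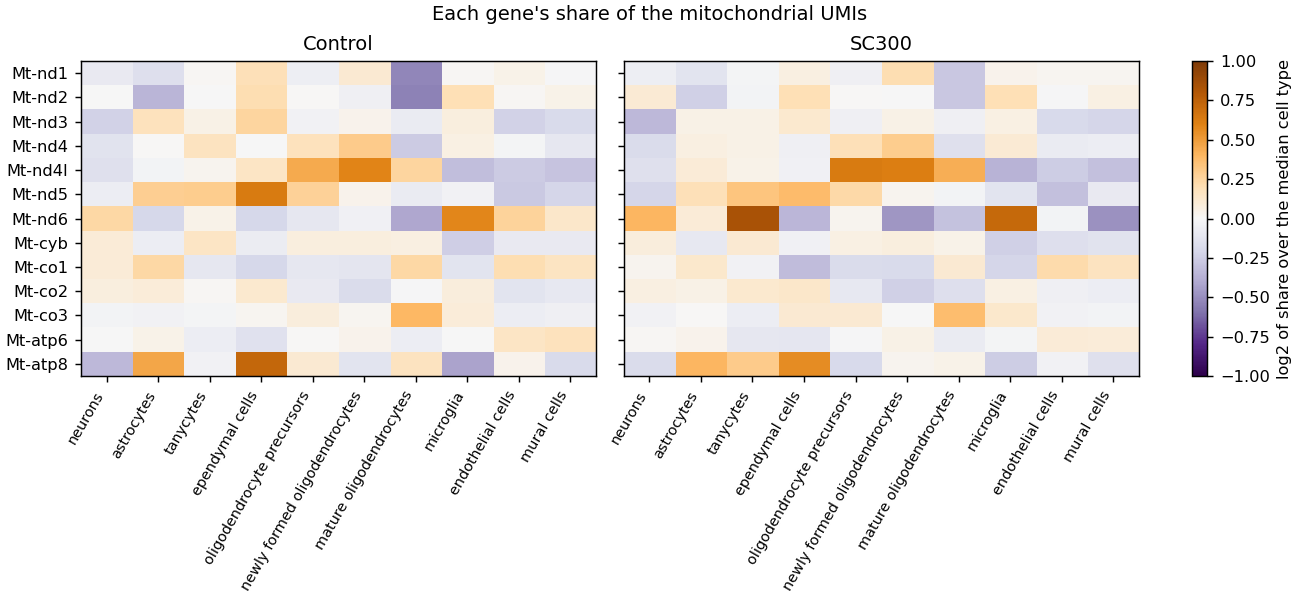
Share of each mitochondrial gene among the mitochondrial UMIs of a cell type, as log2 over the gene's median cell type, in Control and SC300. The column of mature oligodendrocytes shows the high Mt-co3 (21.3% and 21.8%) and low Mt-nd1 and Mt-nd2 in both libraries.

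SC300 was compared with Control for each member and cell type to see whether this pathway differed at PND 29. The study reports serum estradiol still above Control in SC300 rats at about this age. A lasting effect of neonatal exposure and an effect of ongoing exposure therefore cannot be told apart. Most members differed little. Of the 843 values of nuclear members with at least 50 UMIs in a cell type, 836 were under 1.5-fold in either direction. So were 126 of 130 mitochondrial values. The same share was not counted over all genes. Of all gene values, 2.41% were higher and 3.02% lower by over 1.5-fold with the interval beyond 0. Summed over all kept barcodes, the mitochondrial members had 133246 and 147740 CPM (log2 ratio 0.149, 0.148 to 0.1504), and the nuclear members 29962 and 28974 CPM (-0.048, -0.052 to -0.045). These narrow intervals reflect the many UMIs and say nothing of how pools of rats vary.

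The mitochondrial sum was higher in SC300 in 10 of 10 cell types. The log2 ratio was 0.018 in tanycytes, 0.021 in ependymal cells, 0.055 in endothelial cells, 0.088 in astrocytes and 0.124 in neurons. It was 0.153 in oligodendrocyte precursors, 0.176 in mural cells, 0.179 in newly formed, 0.245 in mature oligodendrocytes and 0.228 in microglia. By the first gate it was above 0 in 7 of 8 types, and in ependymal cells it was -0.0021 (-0.0070 to 0.0029). In ependymal barcodes with at most 20% mitochondrial UMIs it was -0.103 by the second gate and -0.054 by the first, so the direction there turned with that limit. Neurons were not uniform either. GABAergic barcodes (Slc32a1 without Slc17a6) went from 124612 to 143273 CPM, while glutamatergic barcodes (Slc17a6 without Slc32a1) went from 139452 to 136702 CPM. The median share per barcode went from 11.5% to 13.1% in the former and from 12.8% to 12.6% in the latter, where Mt-co2 had a ratio of -0.11 and Mt-cyb of -0.06. Median mitochondrial shares per barcode moved the same way over all barcodes, from 11.4% to 12.4%. Among members, Mt-co3 was above 0 in 10 of 10 types, with log2 ratios from 0.04 to 0.33, and over all barcodes it had the largest ratio of the 13, at 0.24. Nuclear sums lay within -0.077 and 0.052 in all 10 types. They were below 0 in neurons (-0.075) and mature oligodendrocytes (-0.077), where 76 of 90 and 70 of 87 members were below 0. They were above 0 in microglia (0.040) and mural cells (0.052). The median of all genes tested was -0.058 in neurons and -0.024 in mature oligodendrocytes, against -0.082 and -0.074 for the nuclear members. CPM is a share, so more mitochondrial UMIs leave less room for all other genes. With UMIs of non-mitochondrial genes as the scale, the neuronal ratio was -0.054 and that of mature oligodendrocytes -0.044.

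**Figure D5:**
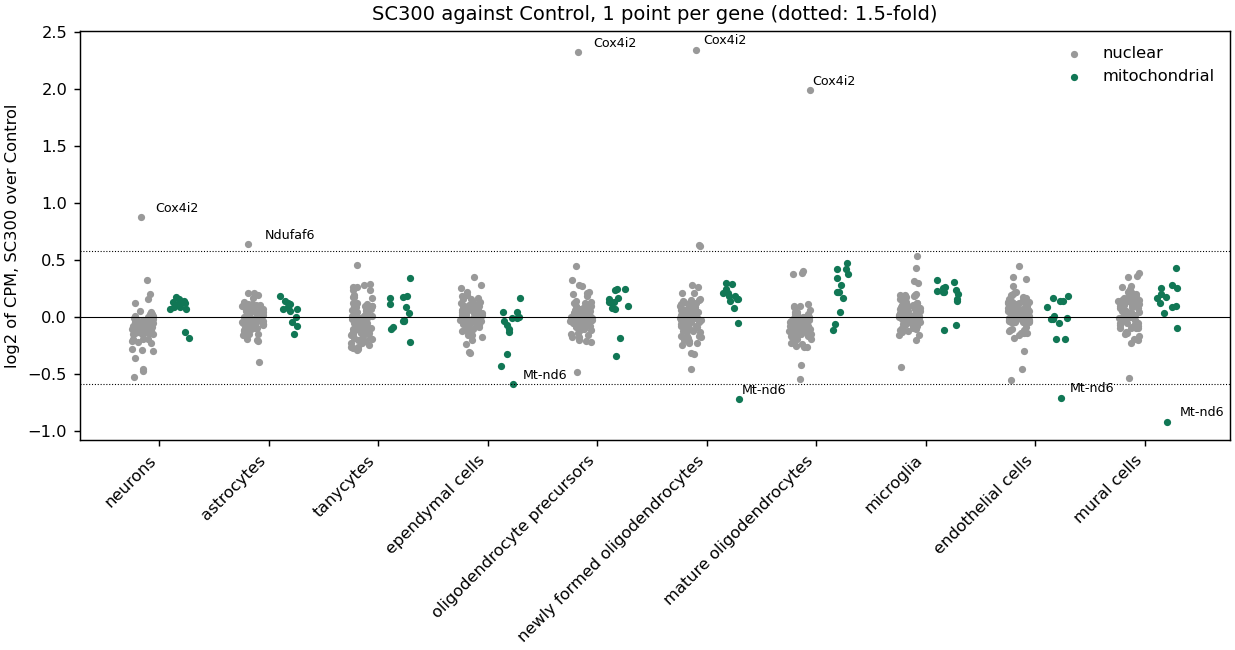
Log2 ratio of SC300 over Control for each member with at least 50 UMIs in a cell type, nuclear in grey and mitochondrial in green. Dotted lines mark 1.5-fold. Most points lie between them, and the named ones are Cox4i2 at 0.88 to 2.35, Ndufaf6 at 0.64 and Mt-nd6 at -0.59 to -0.91.

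A member was counted as past 1.5-fold where its interval also lay beyond 0. With the second gate 5 values were higher and 4 lower in SC300. Cox4i2 gave 4 of the 5 higher values, in oligodendrocyte precursors, newly formed oligodendrocytes, mature oligodendrocytes and neurons, and Ndufaf6 in astrocytes gave the other. Mt-nd6 gave all 4 lower ones, in ependymal cells, newly formed oligodendrocytes, endothelial cells and mural cells. Of all genes tested in a type, 1.34% were higher by this rule in oligodendrocyte precursors, 1.84% in newly formed and 2.05% in mature oligodendrocytes, 2.62% in neurons and 2.39% in astrocytes. Lower were 5.3% in ependymal cells, 2.82% in newly formed oligodendrocytes, 3.02% in endothelial cells and 3.55% in mural cells. Over all types together, 5 of 973 member values (0.514%) were higher and 4 (0.411%) lower, against 2.41% and 3.02% of all gene values. With the first gate 6 of 789 were higher and 1 lower (0.760% and 0.127%, against 2.44% and 3.4%). Cox4i2 was higher in neurons (2.36% of all genes), ependymal cells (2.87%), oligodendrocyte precursors (1.67%), newly formed (2.27%) and mature oligodendrocytes (3.48%), Ndufs1 in newly formed oligodendrocytes, and Mt-nd6 was lower in endothelial cells (3.76%).

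Cox4i2 was higher across the oligodendrocyte lineage of SC300. Precursors had 30 Cox4i2 UMIs in Control and 160 in SC300, that is 14.1 CPM (9.499 to 20.1) and 70.5 CPM (59.97 to 82.3), which gave a ratio of 2.32 (1.75 to 2.94). In newly formed oligodendrocytes the counts were 8 and 48 UMIs (2.35, 1.25 to 3.64), and in mature oligodendrocytes 11 and 59 UMIs (1.99, 1.05 to 3.07). With the first gate the ratios were 2.22, 2.53 and 1.90. In precursors the counts were spread over many barcodes. In SC300 precursors 108 of 337 barcodes had a UMI, 32.0% (27.1 to 37.3), and the barcode with the most held 3.75% of the UMIs, against 27 of 347 Control barcodes, 7.78% (5.19 to 11.1). Thinned to 2000 UMIs per barcode, which left out 25 Control and 8 SC300 precursors, the shares were 3.11% (1.499 to 5.64) and 11.6% (8.30 to 15.5). The Control counts of newly formed and mature oligodendrocytes lay in 7 barcodes each, and 1 barcode held 25% and 36.4% of them. Thinned alike, newly formed oligodendrocytes had 1.98% (0.241 to 6.97) and 4.90% (1.61 to 11.1). Mature ones had 0.276% (0.007 to 1.53) and 1.31% (0.482 to 2.83), and the intervals overlapped at both stages. Microglia, with the fewest Cox4i2 UMIs of the 10 types, had a UMI in 1.04% and 0.875% of barcodes. Their median depths of 6986 and 7656 UMIs were close to those of precursors (6214 and 6701). Shares were 2.50% and 2.99% in astrocytes, 4.45% and 6.99% in neurons, and 4.55% and 14.6% in ependymal cells. Which of these types gives the level of background RNA was not tested.

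The partner Cox4i1 had 841 and 883 CPM in precursors (0.07, -0.02 to 0.16), and the Cox4i2 share of both forms went from 1.65% to 7.39%. Neurons had 2.65 and 4.87 CPM of Cox4i2 (0.88, 0.22 to 1.57). Among them, GABAergic barcodes had 14 and 40 UMIs, and glutamatergic barcodes 9 and 15. Ependymal cells had 9 and 39 UMIs, under the minimum of 50 for a call, and 29 and 63 by the first gate (1.67, 1.02 to 2.36). In mural cells, where the gene is most abundant, the level was about equal at 1013 and 948 CPM, and microglia had 5 UMIs in either library. Tanycytes had 20.8 and 19.4 CPM and astrocytes 3.96 and 4.59 CPM, with intervals of the ratio that included 0. Endothelial cells had 328 and 483 UMIs, or 122 and 154 CPM (0.34, 0.13 to 0.54), a higher level but under 1.5-fold. Among vessel cells the ratio was thus above 0 in endothelial cells and its interval included 0 in mural cells. In Control 661 of 2144 Cox4i2 UMIs were counted in mural cells, and in SC300 865 of 3216, while barcodes that passed no gate had 950 and 1353.

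Vessel RNA in the same barcodes was measured next to this. The 6 mural markers summed to 12.2 CPM in Control and 18.5 CPM in SC300 precursors (26 and 42 UMIs), to 6.16 and 5.22 CPM in newly formed and to 2.05 and 5.03 CPM in mature oligodendrocytes. In mural cells these markers were at 8362 and 8007 CPM, well above Cox4i2. In precursors Cox4i2 exceeded them in both libraries, at 14.1 against 12.2 CPM in Control and 70.5 against 18.5 CPM in SC300. Tanycytes showed the same, at 20.8 against 5.39 CPM in Control and 19.4 against 12.9 CPM in SC300. Cox4i2 was below these markers in neurons, astrocytes and microglia of both libraries. Abcc9, a potassium channel subunit of pericytes, gave 13 and 23 of these precursor UMIs, Vtn 4 and 7, Rgs5 3 and 4, Pdgfrb 3 and 5, Kcnj8 3 and 2, and Notch3 0 and 1. In mural cells Vtn led with 3265 and 2514 CPM, before Abcc9 with 1735 and 1743 CPM, and Notch3 was low there too, at 36.8 and 26.3 CPM. Ndufa4l2, the other member particular to mural cells, had 1 and 4 UMIs in precursors. Within SC300 precursors, the 108 barcodes with a Cox4i2 UMI had 16.6 CPM of mural markers and the 229 without had 19.5 CPM. Their precursor markers were at 4148 and 4327 CPM. The other lineage stages of SC300 went the other way. The 20 newly formed barcodes with a Cox4i2 UMI had 14.97 CPM of mural markers and the 86 without had 3.75 CPM. These newly formed values rest on 8 mural marker UMIs in all. For mature oligodendrocytes the values were 7.25 CPM in 44 and 4.77 CPM in 419 barcodes, on 53 mural marker UMIs in all. No interval was computed for these splits by Cox4i2 UMI, so their directions are not set apart from counting error. In Control, barcodes with a Cox4i2 UMI had 0 CPM of mural markers in newly formed and mature oligodendrocytes, on 7 barcodes each. Those without had 6.52 and 2.09 CPM. Control precursors had 10.3 CPM with and 12.4 CPM without a Cox4i2 UMI. The 5 endothelial markers were at 7.04 and 11.9 CPM in precursors, and at 12.2 and 27.2 CPM in mature oligodendrocytes. Haemoglobin RNA, made by red blood cells, went from 343 CPM in Control to 82.8 CPM in SC300 precursors. It went the other way in the vessel types, from 344 to 1970 CPM in endothelial and from 285 to 786 CPM in mural cells. In the remaining types it was lower in SC300, as in precursors. The part of RNA from other cells in the Cox4i2 counts was not tested beyond these values.

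Cox4i2 lies between Id1 and Bcl2l1 and next to an unnamed lncRNA locus in the rat genome (RefSeq). In precursors Id1, an inhibitor of differentiation factors, had 24 and 48 UMIs (0.91, 0.17 to 1.68), and Bcl2l1, a survival factor of the Bcl-2 family, 62 and 97 UMIs (0.55, 0.08 to 1.04). In newly formed oligodendrocytes Bcl2l1 had a ratio of 0.01 (-0.47 to 0.50) and in mature oligodendrocytes 0.00 (-0.09 to 0.09). Id1 had a ratio of 0.65 (-0.78 to 2.22) in newly formed oligodendrocytes, on 7 and 13 UMIs, and was higher in mature ones, on 41 and 92 UMIs (0.73, 0.19 to 1.30). It was also higher in microglia, on 81 and 156 UMIs (0.90, 0.50 to 1.30), where Cox4i2 had 5 UMIs in either library, and lower in ependymal cells, on 118 and 43 UMIs (-0.90, -1.44 to -0.38), where Cox4i2 had 9 and 39. Both neighbours were chosen after their values were seen. Whether reads of a neighbouring transcript were counted as Cox4i2 was not tested.

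Mt-nd6 is the only one of the 13 that is encoded on the light strand of the mitochondrial DNA. Over all kept barcodes the abundant heavy-strand genes were higher in SC300, but not in each type. The median ratio of the 13 was -0.035 in ependymal and -0.004 in endothelial cells, against 0.184 in newly formed oligodendrocytes and 0.166 in mural cells. Mt-nd6 was lower over all kept barcodes, at 89.4 and 76.7 CPM (-0.22, -0.28 to -0.16). By type, it had 95.03 and 50.4 CPM in mural cells (-0.91, -1.50 to -0.34), 65.4 and 39.8 CPM in newly formed oligodendrocytes (-0.72, -1.22 to -0.23), 107 and 65.5 CPM in endothelial cells (-0.70, -0.97 to -0.44) and 103 and 68.5 CPM in ependymal cells (-0.59, -0.86 to -0.32). It was below 0 in 9 of 10 types, tanycytes being the exception at 107 and 136 CPM (0.34). The ratios in neurons (-0.18), astrocytes (-0.07), microglia (-0.11), precursors (-0.18) and mature oligodendrocytes (-0.11) were under 1.5-fold. Mt-nd4l and Mt-atp8, also at low counts, had ratios of -0.03 and -0.05 over all barcodes, and Mt-nd4l was above 0 in 2 of 10 types. With called doublets left out, the endothelial ratio was -0.57 by the first gate and -0.54 by the second, both under 1.5-fold. In ependymal cells the ratio was -0.40 by the first gate and -0.37 in barcodes with at most 20% mitochondrial UMIs, and in newly formed oligodendrocytes it was -0.47 by the first gate. The mural value rests on 62 and 46 UMIs in 32 barcodes of each library.

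Ndufaf6, a complex I assembly factor, had 91 and 157 UMIs in astrocytes, 9.25 and 14.4 CPM (0.64, 0.26 to 1.03). It was above 0 in 8 of 10 types. In neurons it had 31.4 and 39.4 CPM (0.33, 0.13 to 0.53), and mural cells (19 and 8 UMIs) went the other way. The first gate gave 0.50 in astrocytes, under 1.5-fold, and called Ndufs1, the largest subunit of complex I, in newly formed oligodendrocytes on 32 and 65 UMIs (0.72, 0.09 to 1.38). Ndufs1 was named after its value was seen. With the second gate that value was 0.63 (-0.05 to 1.34).

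Over all kept barcodes the 5 highest ratios of the 103 were those of Cox4i2 (0.45), Ndufaf6 (0.31), Mt-co3 (0.24), Ndufa4l2 (0.24) and Mt-co1 (0.19). The 5 lowest were those of the second identifier of Ndufa10l1 (-0.50, with 362 UMIs), Ndufs6 (-0.29, 165 UMIs), the second identifier of Cox6b1 (-0.25), Ndufaf1 (-0.24) and Atp5md (-0.23), a small subunit of the ATP synthase that had 177 and 150 CPM. None of these 10 reached 1.5-fold over all barcodes. Ndufa10l1 and Cox6b1 were counted under 2 identifiers each, and both identifiers of Ndufa10l1 and of Cox6b1 were below 0. Of the nuclear members, 69 of 90 were below 0 and 21 above, with a median of -0.04. How many of all genes were below 0 was not counted.

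Genes around the pathway were read from lists beside the members. Of 118 values of 15 respiration genes outside the name rule, such as the ADP/ATP carriers Slc25a4 and Slc25a5, 1 was lower and 1 higher. For 18 measured genes of mitochondrial biogenesis and assembly it was 1 and 1 of 119, for 13 genes of pyruvate dehydrogenase and the TCA cycle 2 and 0 of 120, and for 16 glycolytic genes 2 and 1 of 132. Over all genes and types, 3.02% of values were lower and 2.41% higher by the same rule.

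The genes behind these counts lay in neurons, tanycytes, ependymal cells and microglia. Only some are named here, and they were named after their values were seen. Left unnamed are a respiration gene higher in microglia, biogenesis genes lower in neurons and higher in tanycytes, and a TCA cycle gene lower in ependymal cells. Etfb, a subunit of the flavoprotein that passes electrons from fatty acid oxidation to the respiratory chain, had 203 and 103 CPM in neurons (-0.98, -1.08 to -0.88) on 2302 and 1207 UMIs. Its ratio in the other 9 types lay between -0.35 and 0.15. Fh, the fumarase of the TCA cycle, had 201 and 86.6 CPM in microglia (-1.22, -1.42 to -1.02). In ependymal cells the glycolytic Aldoc (-0.89) and Pgk1 (-0.60) were lower and Ldha (0.97) was higher.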

How the data were processed

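Raw UMI counts per gene and barcode were deposited by the authors as 1 matrix per library, made with Cell Ranger 3.0.1 and the Ensembl 96 rat annotation. No normalised values were used. Barcodes under 200 detected genes were dropped, and marker lists sorted the others into types. Member counts were summed per type and library and scaled to 1000000 UMIs (CPM). Ratios have exact 95% conditional binomial intervals, levels exact Poisson and shares exact Clopper-Pearson intervals. All cover counting error only. A member was called where it differed by over 1.5-fold with its interval beyond 0 and at least 50 UMIs in the type. Doublets were marked with Scrublet in scanpy 1.11.5 (70 Control and 73 SC300 barcodes) and kept, then left out as an alternative. Scripts ran in Python 3.11.15 with scipy 1.17.1 and were tested on simulated data. Named genes were the 13 mitochondrial genes, families with tissue forms, complex II, members particular to a type, the 5 highest and 5 lowest ratios, members past 1.5-fold on at least 200 UMIs, and the 5 most abundant nuclear members. The members and lists were chosen with earlier results of these data known.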

Additional observations from a re-analysis of the deposited data

How the results depend on the processing

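Each setting was changed alone. The summed mitochondrial log2 ratio of 0.149 became 0.173 with UMIs of non-mitochondrial genes as the scale, 0.191 with a median-of-ratios scale, 0.122 in barcodes with at most 20% mitochondrial UMIs, 0.131 with at least 1000 genes per barcode and 0.132 with every barcode weighted alike. The nuclear ratio of -0.048 became -0.024, -0.006 (-0.0064), -0.056 and -0.022 with the non-mitochondrial scale, the median-of-ratios scale, at least 1000 genes and equal weights. The cause was not tested. With the first gate 1 value was lower, against 2 with a gate share of 0.6, a gate lead of 0.3, at least 1000 genes, at least 20 UMIs or the second gate with a lead of 2, 4 with equal weights, with the second gate or with the second gate without called doublets, and 5 with at most 20% mitochondrial UMIs under either gate. The higher count of 6 became 0 when at least 200 UMIs were required, since each of the 6 rested on fewer, and lay between 4 and 9 otherwise. Members particular to a type were 3 in place of 6 with the second gate and a lead of 2. These 3 were Cox6b2, Atp5if1 and Ndufa4l2. Atp5mc3 also dropped out under the first gate with the non-mitochondrial scale and with equal weights. No direction reversed among called values. Of the summed mitochondrial or nuclear values by cell type and setting, 109 of 192 moved outside the counting interval of the first gate. The nuclear ratio of newly formed oligodendrocytes was -0.024 by the first gate and 0.011 by the second. Cox4i2 stayed between 2.19 and 2.51 in oligodendrocyte precursors over 14 settings, 2.35 and 2.81 in newly formed and 1.90 and 2.62 in mature oligodendrocytes. In neurons it ranged more widely, from 0.86 with the second gate and a lead of 2 to 1.63 with a gate share of 0.6. The summed mitochondrial ratio was above 0 in 90 of 96 values by cell type and setting, and in ependymal cells it ranged from -0.103 to 0.070. The second gate and its variants were chosen after seeing the data. No paired analysis was possible because each group has 1 library. With 1 pool of 3 rats per group, depth limits only the counting error, and differences between rats, pools and library preparations cannot be told apart from the treatment.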
